A study of Rattus norvegicus with 18 samples.

Results

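Gene expression next to scaffolds carrying amorphous calcium phosphate chitosan nanoparticles (ACPC-NP) was compared between week 6 and week 2 after implantation. The comparison uses 6 of the 18 libraries of the series, taken by their labelled scaffold and week, with 3 libraries at each week. The animals were rats labelled WT, and the labels give no strain, age or sex. All of them had a defect of the radius too large to close unaided, filled with a 3D-printed implant. The implant was polycaprolactone (PCL), a slowly resorbed polyester, alone, with calcium phosphate microparticles (CaP), or with the nanoparticles. Marrow, treated with a buffer that lyses red blood cells, and minced bone from within 1 mm of either end of the implant were digested with enzymes, and the freed cells were pooled before polyadenylated RNA was sequenced. A library is therefore a mixture of marrow, bone and adjoining tissue, in which fewer cells of a type and less RNA per cell cannot be told apart. Whether the 3 libraries of a group are 3 animals is not stated, so the p-values measure the spread between these libraries, which may be technical. The labels give no batch.

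Bone repair begins with inflammation, in which neutrophils and macrophages release cytokines and clear debris. Mesenchymal cells then lay down collagen and cartilage, osteoblasts mineralise the matrix, and osteoclasts resorb and reshape it while marrow fills the spaces again. Osteoblasts secrete collagen I and mineral-binding proteins such as osteocalcin and bone sialoprotein. Marrow, in turn, is the site where granulocytes and red cells mature. The comparison of the weeks asks how the tissue next to this implant stood early and later in that course.

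Levels are CPM, counts scaled to a common library size with edgeR's normalisation, given for replicates 1, 2 and 3 in that order. A difference is a log2 fold change, week 6 minus week 2, ± its standard error, so that a negative value means a lower level at week 6. Adjusted p-values are from edgeR's quasi-likelihood test over all 11814 genes tested unless another tool is named. A gene is called separated when all 3 libraries of one week lay on the same side of all 3 libraries of the other.

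The 6 libraries held 18880604 to 25217221 counts. Replicate 3 of week 2 stood apart: its normalisation factor was 0.707, while that of the other 17 libraries lay between 0.950 and 1.11, and inflammatory, hypoxia and ferritin genes were far above the other libraries in it. For many lists and genes the value without it is also given. Replicate 3 of week 6 was high in muscle genes: the 16 skeletal muscle genes tested summed to 898 CPM in it, against 97.9 to 137 CPM in the other libraries of week 6 and 32.6 to 103 CPM at week 2. Replicate 1 of week 6 held little cartilage, with 163 CPM over the 13 cartilage genes tested against 1159 to 2365 CPM in the other libraries. Defining markers of bone and marrow were present in all 6 libraries, among them Col1a1, Bglap, Mpo, Elane, Klf1, Cd68 and Acp5. Fat cell markers were at or near 0: Adipoq lay between 0.225 and 1.04 CPM, and Plin1 and Cidec were below the filter on low counts.

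By edgeR, 1 gene of 11814 (0.00846%) passed an adjusted p of 0.05. It was Gal, which encodes the neuropeptide galanin, and it fell. At an unadjusted p under 0.05 there were 2340 genes, Gal among them, 863 higher and 1477 lower at week 6. By DESeq2, 277 genes (2.34%) were called higher and 508 (4.3%) lower. Limma's voom with quality weights, which gives a library that stands apart less weight, called 613 (5.19%) higher and 737 (6.24%) lower. Without replicate 3 of week 2, edgeR called 0 genes: 1196 had an unadjusted p under 0.05, and the lowest adjusted p was 0.0911. DESeq2 then called 42 (0.352%) higher and 63 (0.528%) lower, and voom 40 (0.335%) higher and 82 (0.687%) lower. DESeq2 and voom both called the same 19 genes higher and 35 lower whether that library was in or out. Separated genes numbered 1091 higher (9.23%) and 1099 lower (9.3%).

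Gal was measured at 10.4, 6.11 and 16.6 CPM at week 2 and 0.684, 0.406 and 0.625 CPM at week 6. Each library of week 2 lay above 6 CPM and each of week 6 below 1 CPM, so the groups were far apart relative to their spread. The difference was -4.25 ± 0.56 (edgeR, adjusted p = 0.0221). Without replicate 3 of week 2 it was -3.82 ± 0.56 (edgeR, adjusted p = 0.0911), while DESeq2 and voom called it lower both with and without that library. Around PCL the difference between the weeks was -0.99 ± 0.55 and around CaP -1.22 ± 0.52. The difference of differences was -3.27 ± 0.77 against PCL (edgeR, adjusted p = 0.278) and -3.03 ± 0.75 against CaP (edgeR, adjusted p = 0.244), which did not pass. Galanin is best known from neurons. The 11 nerve genes tested, Gal included, had a median difference of 0.86, and of 0.035 without replicate 3 of week 6, where 4 were separated and lower (20.1% of all genes were). The promoter of Gal is shown because it is the one gene that passed. The 250 bases before its start in RefSeq (build GRCr8, chr1:210084573-210084822, minus strand) are printed 5′ to 3′ with 2 matches in capitals, a TATA box (TATAAA, first base 41 before the start) and, on the opposite strand, a kB-type motif (GGGA, NN, T, N and CC in that order, N being any base, first base 57 before the start).
Gal: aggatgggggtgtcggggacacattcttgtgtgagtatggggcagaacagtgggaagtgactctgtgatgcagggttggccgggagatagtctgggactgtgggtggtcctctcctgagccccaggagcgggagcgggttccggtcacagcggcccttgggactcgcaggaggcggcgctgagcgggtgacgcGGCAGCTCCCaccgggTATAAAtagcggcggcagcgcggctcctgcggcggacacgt
Of 33469 promoters of 300 bases in that reference, counted on both strands, 14.2% held TATAAA and 3.95% held the kB-type motif.

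**Figure D1:**
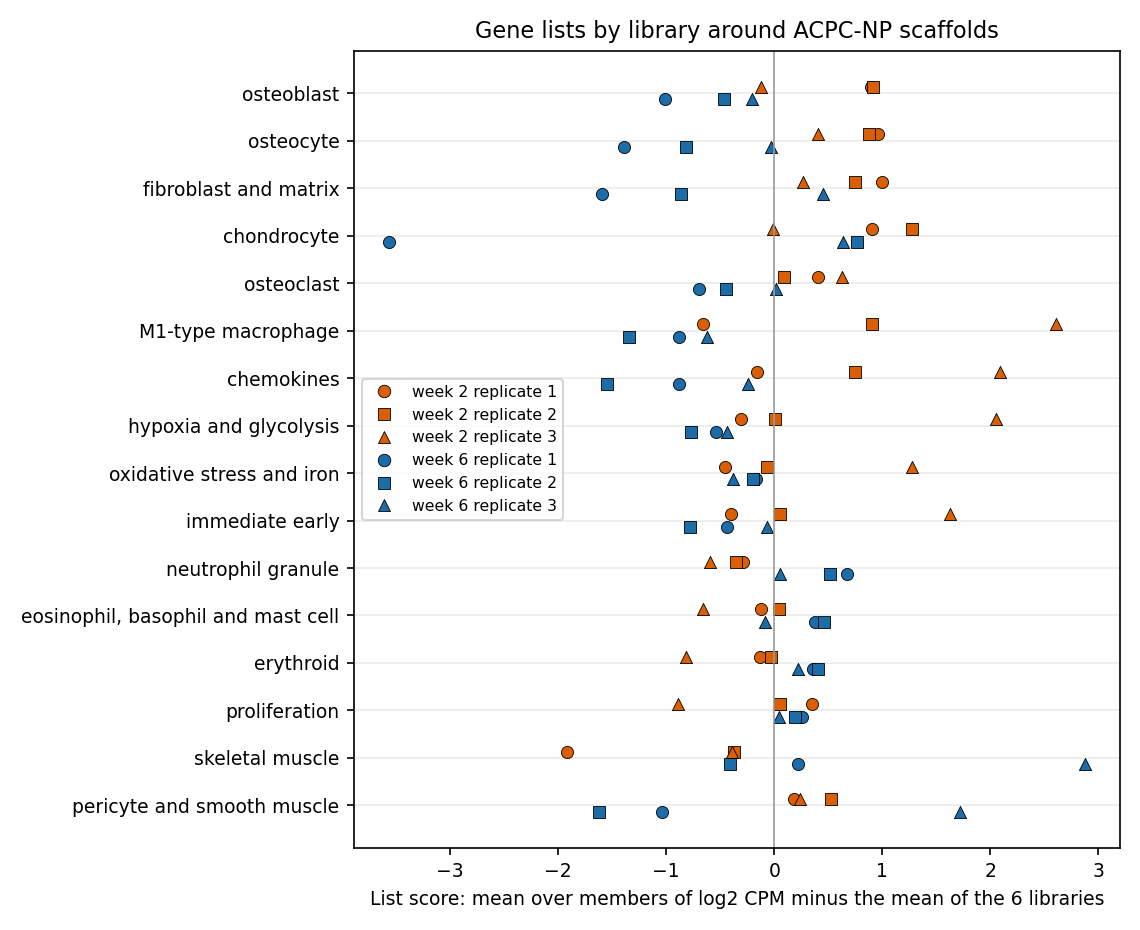
Score of 16 gene lists in each of the 6 ACPC-NP libraries: the mean over the tested members of log2 CPM minus that gene's mean over the 6 libraries (horizontal axis). Orange symbols are week 2, blue symbols week 6, and the shape gives the replicate. Bone-forming and matrix lists were high in replicates 1 and 2 of week 2, and inflammatory and hypoxia lists in replicate 3 of week 2. Neutrophil granule and red cell lists were higher in all libraries of week 6 than in any of week 2. In the eosinophil, basophil and mast cell list, replicate 3 of week 6 lay below replicate 2 of week 2. Muscle and vessel wall lists were high in replicate 3 of week 6.

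Genes of bone-forming cells stood lower at week 6. Of the 17 osteoblast genes tested, 8 were separated and lower, against 9.3% of all genes, and 0 were separated and higher. Their median difference was -1.30, while that of all genes was -0.03, and 15 of 17 lay below 0. By edgeR 0 of them passed, by DESeq2 5 (Sp7, Col1a1, Ibsp, Spp1 and Phex) and by voom 10 were called lower, and without replicate 3 of week 2 these calls were 3 and 2. The median without that library was -1.60 and 14 were separated and lower (16.1% of all genes were). In that library the osteoblast genes were closer to week 6 than to the other libraries of week 2.

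Col1a1, the main chain of collagen I, stood at 20201, 21172 and 7546 CPM at week 2 and 4373, 5617 and 7483 CPM at week 6. Replicates 1 and 2 of week 2 were the highest, and replicate 3 of week 2 lay just above replicate 3 of week 6. The difference was -1.49 ± 0.41 (edgeR, adjusted p = 0.0994), and -1.81 ± 0.37 without replicate 3 of week 2. Sp7, the osterix transcription factor that commits cells to the osteoblast fate, stood at 3.74, 5.72 and 2.69 CPM at week 2 and 0.769, 2.35 and 1.46 CPM at week 6. Runx2, which acts upstream of Sp7, stood at 40.8, 40.4 and 38.7 CPM at week 2 and 37.5, 42.5 and 31.5 CPM at week 6, with overlapping groups and a difference of -0.11 ± 0.14.

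Among the mineral-binding proteins, Bglap, which encodes osteocalcin, stood at 413, 339.8 and 173 CPM at week 2 and 112, 132 and 173 CPM at week 6. Ibsp, bone sialoprotein, stood at 171, 194 and 69.3 CPM at week 2 and 19.1, 36 and 57 CPM at week 6. Their differences were -1.15 ± 0.42 and -1.96 ± 0.68 (edgeR, adjusted p = 0.159 and 0.144). In both genes replicate 3 of week 2 again stood nearest to week 6, and for Bglap it was level with replicate 3 of week 6. Bglap still counts among the 8 separated osteoblast genes, by a margin too small to show in these rounded values. Spp1, osteopontin, is made by osteoblasts, osteoclasts and macrophages alike, and stood at 2773, 3114 and 2239 CPM at week 2 and 454, 480.0 and 1124 CPM at week 6. It differed from Bglap and Ibsp in that all libraries of week 2 were well above all of week 6, with a difference of -1.98 ± 0.60 (edgeR, adjusted p = 0.114). Alpl, the alkaline phosphatase that frees phosphate for mineral and that neutrophils also make, had its higher values at week 6, with 91.5, 112 and 67.3 CPM at week 2 and 150.0, 143 and 112 CPM at week 6, and its groups overlapped. Col1a2, the partner chain of collagen I, was counted at under 0.5 CPM in all 6 libraries beside the high level of Col1a1, and it is 1 of the 8 separated osteoblast genes counted above. The promoter of Bglap is a well-studied target of Runx2, so its 250 bases before the start (RefSeq, GRCr8, chr2:176137319-176137568, minus strand) are printed with the Runx core TGTGGT, present on the opposite strand 118 bases before the start, in capitals.
Bglap: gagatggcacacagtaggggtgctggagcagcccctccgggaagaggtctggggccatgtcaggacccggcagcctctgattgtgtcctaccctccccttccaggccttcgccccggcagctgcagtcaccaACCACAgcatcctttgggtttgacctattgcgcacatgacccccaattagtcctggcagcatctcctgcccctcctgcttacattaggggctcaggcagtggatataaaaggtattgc
TGTGGT was found on either strand in 17.3% of all promoters and in 4 of the 11 osteoblast genes that had a promoter in the reference, which were Bglap, Mepe, Runx2 and Sparc.

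Among the 35 genes that DESeq2 and voom both called lower with and without replicate 3 of week 2 were Col1a1 and several genes known to act on collagen. The 8 that follow were picked from those calls and do not stand for collagen genes in general. Lox, the lysyl oxidase that cross-links collagen, stood at 27.7, 37.1 and 13.7 CPM at week 2 and 2.65, 4.87 and 7.55 CPM at week 6, a difference of -2.39 ± 0.50 (edgeR, adjusted p = 0.087). Serpinh1, the collagen chaperone HSP47, stood at 182, 165 and 97.5 CPM at week 2 and 29.5, 40 and 96.7 CPM at week 6. Bmp1, the protease that removes the C-terminal propeptide of collagen, stood at 63.5, 63.4 and 41.9 CPM at week 2 and 25, 28.4 and 38.9 CPM at week 6. Both were separated, Serpinh1 by a small margin because replicate 3 of the 2 weeks was nearly level. Fkbp10, a prolyl isomerase of the collagen chaperone complex, and Pcolce, the enhancer of the propeptidase, differed by -1.32 ± 0.40 and -1.56 ± 0.50, with replicate 3 of the 2 weeks overlapping. Creb3l1, a transcription factor that drives collagen secretion in osteoblasts, stood at 31.3, 35.9 and 19 CPM at week 2 and 7.6, 8.98 and 13.5 CPM at week 6, and Cthrc1, a secreted collagen-associated protein, at 26.3, 24.1 and 8.25 CPM at week 2 and 3.76, 5.73 and 7.86 CPM at week 6. The eighth was Col5a1, a chain of collagen V.

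The wider fibroblast and matrix list had 16 genes tested, with a median difference of -1.17 and 0 separated and higher. Of these genes, 5 were separated and lower (Col5a1, Tnc, Thbs2, Lox and Loxl2), against 9.3% of all genes. This count was 9 without replicate 3 of week 2 (16.1% of all genes were). Replicate 3 of week 6, the library with muscle and vessel wall RNA, was the highest of week 6 for this list. Without it the median was -2.04 and all 16 were separated and lower (20.1% of all genes were). Of 9 osteocyte genes tested, 4 were separated and lower (Mepe, Pdpn, Irx5 and Slc8a3), and 7 without replicate 3 of week 2, with a median of -1.60. Mepe was also among the separated osteoblast genes. Mepe, a matrix protein of cells embedded in bone, stood at 4.96, 2.64 and 2.53 CPM at week 2 and 0.256, 0.587 and 1.3 CPM at week 6, and Slc8a3, a sodium-calcium exchanger, at 13, 13.3 and 5.28 CPM at week 2 and 2.31, 4.29 and 3.9 CPM at week 6. Phex, an osteoblast and osteocyte endopeptidase that acts in phosphate balance, stood at 8.3, 9.39 and 1.46 CPM at week 2 and 0.94, 1.9 and 2.19 CPM at week 6, where replicate 3 of week 2 overlapped with week 6. Of 13 cartilage genes tested, 1 was separated and lower (Matn1), and 8 without replicate 3 of week 2 (16.1% of all genes were). Col2a1, the collagen of cartilage, stood at 969.7, 1276 and 759 CPM at week 2 and 11.8, 853 and 699.7 CPM at week 6, a difference of -0.94 ± 1.81, with replicate 1 of week 6 far below the other libraries.

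**Figure D2:**
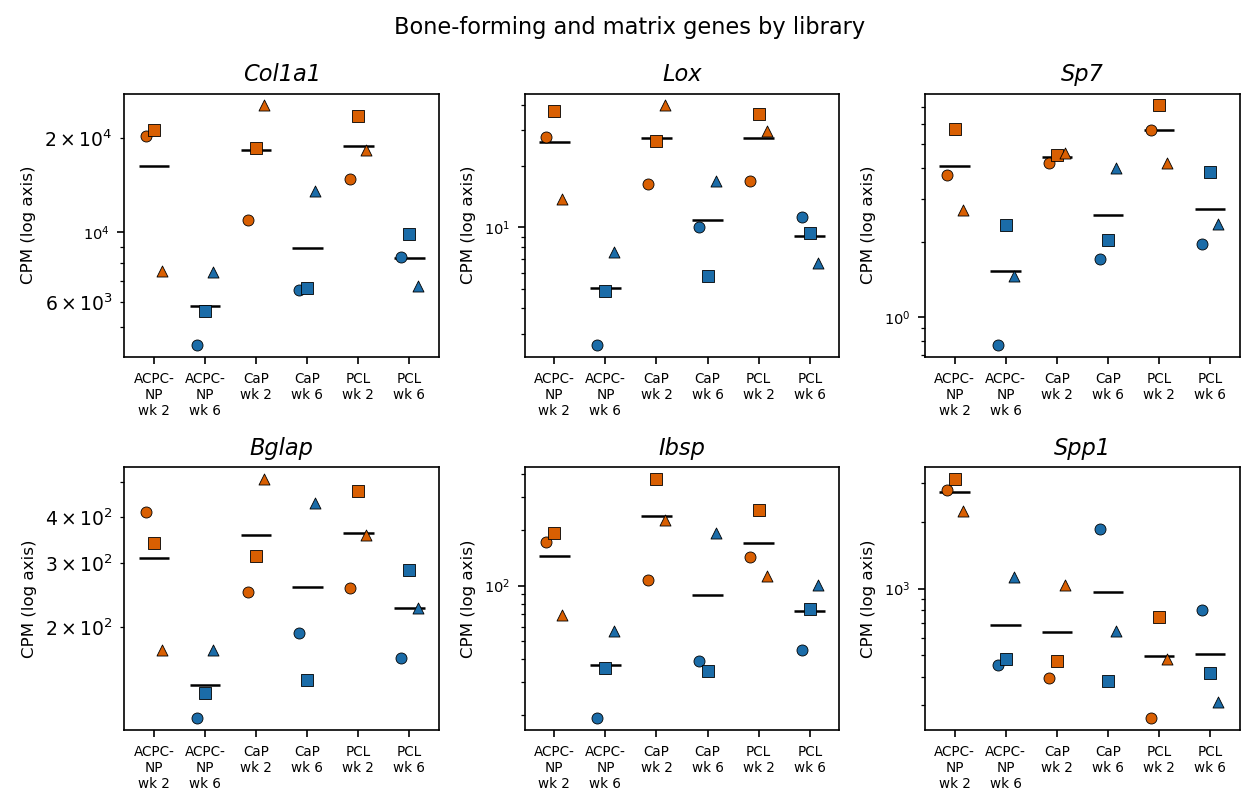
CPM (log axis) of 6 bone-forming and matrix genes in all 18 libraries, by scaffold and week. Each symbol is a library, its shape gives the replicate, its colour the week (orange for week 2, blue for week 6), and the bar is the mean of the 3 libraries. Around ACPC-NP all 6 genes were highest in replicates 1 and 2 of week 2, and Spp1 lay between 2239 and 3114 CPM at week 2 and between 454 and 1124 CPM at week 6.

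Osteoclast genes were lower at week 6 in part. Of 14 tested, 5 were separated and lower (Acp5, Ctsk, Nfatc1, Tcirg1 and Siglec15), against 9.3% of all genes. Car2 alone was separated and higher, while 9.23% of all genes were. By edgeR 0 passed, by DESeq2 4 were called lower, and by voom 3 lower and 1 higher. Without replicate 3 of week 2, DESeq2 called 0 and voom 1 lower. The median was -0.77, and -0.29 without replicate 3 of week 2. Acp5, the tartrate-resistant phosphatase that marks osteoclasts, stood at 319, 216 and 392 CPM at week 2 and 98.9, 105 and 169 CPM at week 6, a difference of -1.32 ± 0.29 (edgeR, adjusted p = 0.087). Ctsk, cathepsin K, which degrades collagen I, stood at 599, 289.8 and 448 CPM at week 2 and 45.5, 85.5 and 169 CPM at week 6. Both genes were high in all libraries of week 2, also in replicates 1 and 2. Nfatc1, the master transcription factor of osteoclasts, differed less, at 98.3, 86 and 109 CPM at week 2 and 59.8, 78.9 and 78 CPM at week 6. Car2, the carbonic anhydrase that supplies acid in osteoclasts and is also abundant in red cells, stood at 1419, 1071 and 622 CPM at week 2 and 1716, 1774 and 1445 CPM at week 6. Mmp9, which osteoclasts and neutrophils both make, stood at 1114, 947 and 1077 CPM at week 2 and 1269.8, 1360.5 and 1105 CPM at week 6 and overlapped.

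Matrix proteases shared part of this pattern, with 6 of 20 list members separated and lower, against 9.3% of all genes, and 0 higher. Without replicate 3 of week 6, 17 were separated and lower (20.1% of all genes were). Mmp14, a membrane collagenase, stood at 212, 225 and 569.6 CPM at week 2 and 24.1, 38 and 116 CPM at week 6, a difference of -2.50 ± 0.67 (edgeR, adjusted p = 0.0936). Mmp13, the collagenase of osteoblasts and cartilage, stood at 256, 87.9 and 84.5 CPM at week 2 and 17.9, 29.9 and 74.4 CPM at week 6, with replicate 1 of week 2 the highest. Ctsl, the lysosomal cathepsin L, stood at 211, 571 and 3541 CPM at week 2 and 81.3, 72.9 and 149 CPM at week 6, with replicate 3 of week 2 far above the rest.

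Inflammatory lists had medians below 0, by far more with replicate 3 of week 2 than without it. For comparison, 9.3% of all genes were separated and lower. Of 25 chemokines tested, 11 were separated and lower and 1 higher (Ppbp), with a median of -1.62 (-0.98 without that library). Of 15 genes of inflammatory (M1-type) macrophages, 3 were separated and lower (Il1a, Cxcl11 and Il23a), with a median of -3.43 (-1.26). Of 17 genes of M2-type macrophages, 8 were separated and lower and 1 higher (Cd163), with a median of -1.82 (-0.86). Of 15 targets of the transcription factor NF-kB, 2 were separated and lower (Tnfaip2 and Bcl2a1), a share of 13.3% near that of all genes, with a median of -1.58 (-0.20). Without replicate 1 of week 2, 12 of these were separated and lower (17.8% of all genes were). The medians of both kinds of macrophage genes were thus below 0, and in the list scores replicate 2 of week 2 also lay above replicate 1.

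Cxcl3, a neutrophil-attracting chemokine, stood at 19.7, 149 and 1402 CPM at week 2 and 5.94, 3.57 and 7.86 CPM at week 6. Its difference was -6.50 ± 1.15 (edgeR, adjusted p = 0.0858) and -3.85 ± 0.68 without replicate 3 of week 2. Ccl4, which attracts monocytes and T cells, stood at 8.66, 42.6 and 207 CPM at week 2 and 3.12, 1.94 and 6.04 CPM at week 6. In both, even the lowest library of week 2 was above every library of week 6. Cxcl2 and Ccl3, of the same 2 families, stood at 276, 1002 and 11009 CPM at week 2 and 218, 143 and 174 CPM at week 6, and at 129.7, 551 and 7574 CPM at week 2 and 106, 60.5 and 87.9 CPM at week 6, where replicate 1 of week 2 was only slightly above week 6. Ccl2, the main monocyte chemokine, stood at 166, 354 and 1689 CPM at week 2 and 206, 91.9 and 139 CPM at week 6 and overlapped, as replicate 1 of week 6 was above replicate 1 of week 2.

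The interleukin genes divided in the same way. Il1a stood at 40.7, 145 and 1440.5 CPM at week 2 and 23.2, 12.6 and 18.3 CPM at week 6 and was separated. Il1b, the related secreted cytokine, stood at 554, 1095 and 9502 CPM at week 2 and 909.9, 469 and 488 CPM at week 6 and overlapped, with a difference of -2.58 ± 0.81 that was -0.39 ± 0.50 without replicate 3 of week 2. Il1rn, the antagonist of the receptor both act on, stood at 282, 1061 and 6396 CPM at week 2 and 173, 147 and 256 CPM at week 6, a difference of -3.75 ± 0.79 (edgeR, adjusted p = 0.087), and -1.79 ± 0.47 without that library. Agonist and antagonist were therefore high in the same library. Il10, which damps inflammation, stood at 1.38, 5.6 and 44.8 CPM at week 2 and 1.07, 0.812 and 0.989 CPM at week 6, and Il6 at 5.51, 22 and 233 CPM at week 2 and 5.38, 2.84 and 8.85 CPM at week 6. Il23a, a subunit of interleukin 23, reached 731 CPM in replicate 3 of week 2 and lay between 2.21 and 32.6 CPM elsewhere. Tnf is listed at 0 in all 18 libraries, as is the red cell factor Gata1, and nothing was drawn from either.

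Enzymes and checkpoint genes of macrophages behaved likewise. Arg1, the arginase of M2-type cells, stood at 21.1, 176 and 1539.6 CPM at week 2 and 4.4, 6.91 and 22.2 CPM at week 6. Nos2, the nitric oxide synthase of M1-type cells, stood at 201, 890.1 and 6367 CPM at week 2 and 258, 184 and 219 CPM at week 6. In both the groups overlapped through replicate 1 of week 2. Cd274, which encodes the checkpoint ligand PD-L1, stood at 6.65, 38.9 and 322 CPM at week 2 and 4.57, 4.2 and 6.04 CPM at week 6, and F3, tissue factor, which starts clotting, at 8.66, 22.9 and 221 CPM at week 2 and 3.2, 2.71 and 5.47 CPM at week 6. These 2 genes were separated by a smaller margin in replicate 1 of week 2 than in replicates 2 and 3. Pdpn, podoplanin, a membrane glycoprotein of early osteocytes, lymphatic vessels and inflammatory macrophages, stood at 21.2, 127 and 908 CPM at week 2 and 7.99, 5.91 and 16.1 CPM at week 6, so it followed the inflammatory genes and not the osteocyte genes.

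Cxcl2 and Slc2a1 stand for the inflammatory and the hypoxia genes that were high together in replicate 3 of week 2, and the 250 bases before their starts are printed for that reason (RefSeq, GRCr8, chr14:17467256-17467505, minus strand, and chr5:138002272-138002521, plus strand). Capitals mark the kB-type motif in Cxcl2, 73 bases before the start, and the hypoxia response core ACGTG in Slc2a1, 51 bases before the start. Only the motif named for each gene is marked. The Cxcl2 stretch, like that of Gal, also holds ACGTG on the opposite strand, so this core does not set Slc2a1 apart from Cxcl2.
Cxcl2: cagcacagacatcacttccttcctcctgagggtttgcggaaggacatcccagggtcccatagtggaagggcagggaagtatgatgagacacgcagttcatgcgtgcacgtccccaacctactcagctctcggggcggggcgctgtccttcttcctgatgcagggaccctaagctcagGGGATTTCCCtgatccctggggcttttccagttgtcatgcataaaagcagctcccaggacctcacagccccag
Slc2a1: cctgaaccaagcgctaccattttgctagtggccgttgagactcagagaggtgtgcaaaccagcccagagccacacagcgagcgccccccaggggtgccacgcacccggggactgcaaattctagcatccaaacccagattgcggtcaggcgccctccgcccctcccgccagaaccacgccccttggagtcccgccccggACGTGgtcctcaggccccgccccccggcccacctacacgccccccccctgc
The kB-type motif was present in 5 of 19 chemokine genes and 6 of 13 NF-kB targets that had a promoter, and in 3.95% of all promoters. ACGTG was present in 13 of 22 genes of the hypoxia and glycolysis list that had a promoter, and in 19.3% of all promoters.

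**Figure D3:**
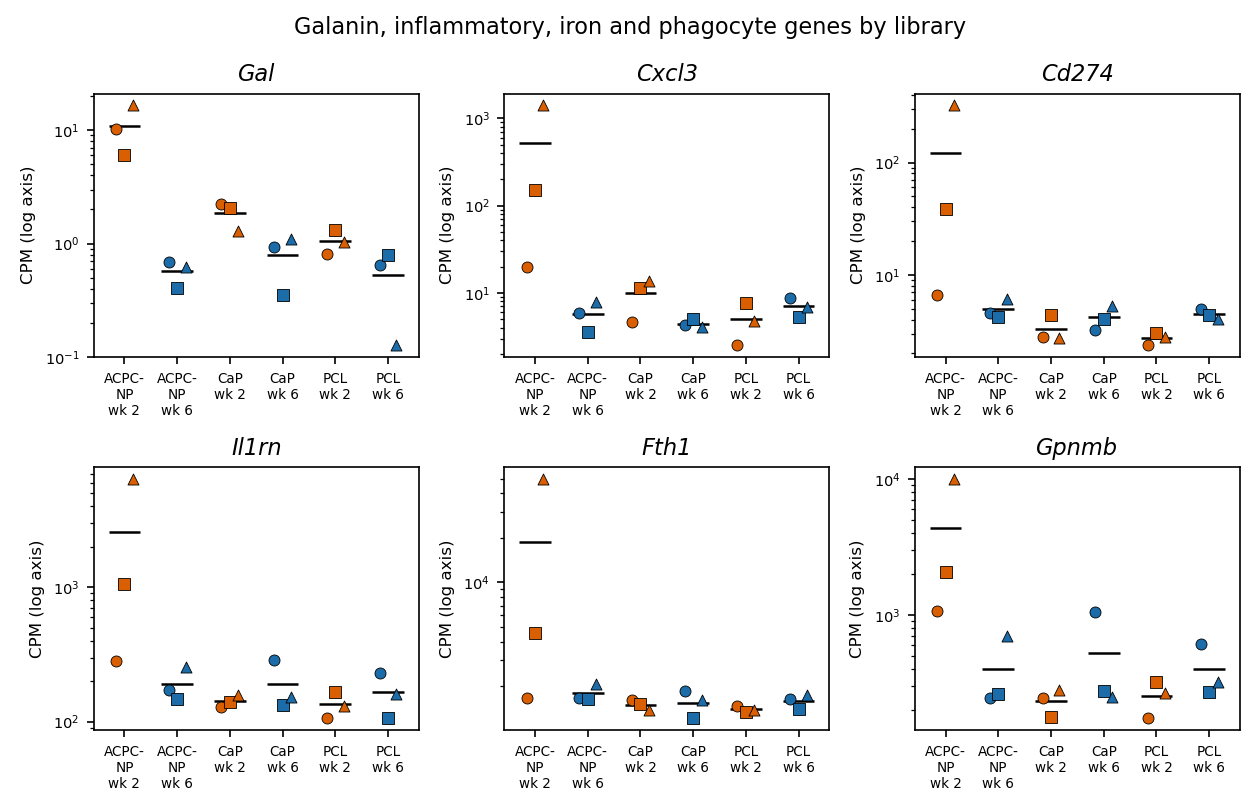
CPM (log axis) of 6 genes in all 18 libraries, by scaffold and week, with a bar at the mean of 3 libraries, the symbol shape giving the replicate and the colour the week (orange for week 2, blue for week 6). Gal was above 6 CPM in all 3 ACPC-NP libraries of week 2. Cxcl3, Cd274, Il1rn, Fth1 and Gpnmb were highest in replicate 3 of ACPC-NP at week 2, with replicate 2 next.

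Lists of low oxygen and stress also had medians nearer 0 without that library. Of 24 hypoxia and glycolysis genes, 8 were separated and lower, against 9.3% of all genes. Their median of -1.27 was -0.32 without replicate 3 of week 2. Slc2a1, the glucose transporter GLUT1, stood at 112, 303 and 2506 CPM at week 2 and 76.7, 46.3 and 93.6 CPM at week 6, and P4ha1, a prolyl hydroxylase of collagen, at 57.5, 97.6 and 814 CPM at week 2 and 22.9, 23.7 and 37.8 CPM at week 6. Vegfa, the main angiogenic factor, stood at 123, 152 and 976 CPM at week 2 and 116, 75.4 and 88.8 CPM at week 6, a difference of -2.16 ± 0.66 with and -0.54 ± 0.43 without replicate 3 of week 2. Fth1, ferritin heavy chain, stood at 1658, 4569 and 49702 CPM at week 2 and 1664, 1653 and 2060.0 CPM at week 6, and Hmox1, heme oxygenase 1, at 163, 344 and 2037 CPM at week 2 and 179, 171 and 151 CPM at week 6. In both genes replicate 1 of week 2 was level with week 6. Of the 18 oxidative stress and iron genes they come from, 2 were separated and lower and 4 higher (Gclm, Slc40a1, Tfrc and Cd163). The median of this list was -0.80, and 0.09 without replicate 3 of week 2. Without it 8 were separated and higher (14.2% of all genes were) and 2 lower. Of 24 immediate early genes, 1 was separated (Dusp2, lower), and the median of -1.05 was -0.28 without that library. Of 15 heat shock and chaperone genes, 4 were separated and lower (Hspa1a, Hspa1b, Dnaja1 and Hsph1). The median of -0.52 was -0.03 without replicate 3 of week 2. Hspa1b, an inducible heat shock gene, stood at 7.36, 9.46 and 107 CPM at week 2 and 1.15, 1.94 and 3.64 CPM at week 6.

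Phagocyte genes did not all go one way. Of 19 monocyte and macrophage genes tested, 6 were separated and lower and 4 separated and higher (Cd163, C1qa, C1qc and Lyz2). Of all genes, 9.3% were separated and lower and 9.23% separated and higher. Gpnmb, a lysosomal glycoprotein of macrophages and osteoclasts, stood at 1064, 2075 and 10021 CPM at week 2 and 247, 264 and 698 CPM at week 6, a difference of -3.44 ± 0.80 (edgeR, adjusted p = 0.087) and -1.95 ± 0.61 without replicate 3 of week 2. Apoe, the lipid carrier that macrophages secrete, stood at 1085, 1829 and 4275 CPM at week 2 and 186, 331 and 628 CPM at week 6, a difference of -2.65 ± 0.53 (edgeR, adjusted p = 0.087) and -1.91 ± 0.46 without replicate 3 of week 2. Both were lower in every library of week 6 than in any of week 2, replicate 1 included. Cd68 and Csf1r, a lysosomal marker and the receptor for the macrophage growth factor, differed by -1.04 ± 0.35 and -0.61 ± 0.27 (-0.52 ± 0.31 and -0.40 ± 0.28 without that library) and were separated. By contrast Cd163, the hemoglobin scavenger receptor of resident macrophages, stood at 59.2, 64.8 and 40.6 CPM at week 2 and 94.4, 174 and 81.1 CPM at week 6. C1qa and C1qc, chains of complement C1q, stood at 79, 81.5 and 97.3 CPM at week 2 and 103, 171 and 117 CPM at week 6, and at 54.6, 56.7 and 68.5 CPM at week 2 and 82.5, 143 and 87.4 CPM at week 6. Their groups did not overlap, with differences of 1.08 ± 0.46, 0.60 ± 0.30 and 0.80 ± 0.34 that did not pass edgeR (adjusted p = 0.208, 0.294 and 0.207).

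**Figure D4:**
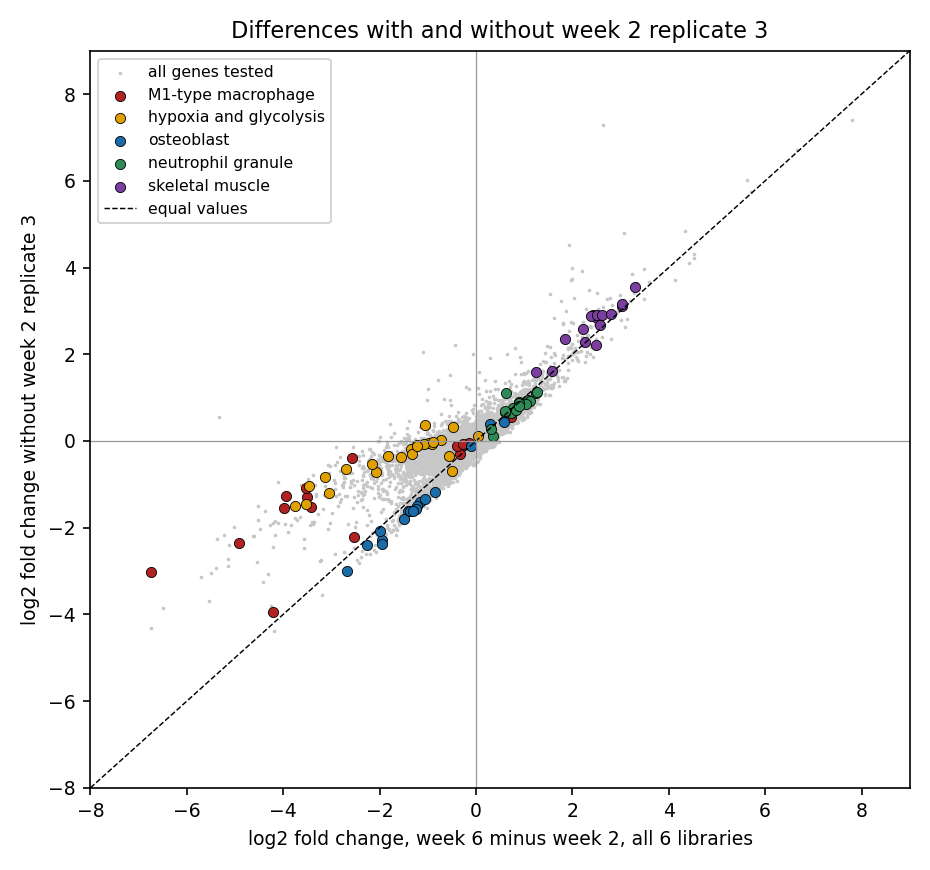
Log2 fold change, week 6 minus week 2, from all 6 libraries (horizontal axis) against that without replicate 3 of week 2 (vertical axis) for the 11814 genes tested, with 5 lists coloured and the line of equal values dashed. The axes share the week 6 libraries and 2 libraries of week 2. Inflammatory and hypoxia genes lie above the line, closer to 0 without that library, while osteoblast, granule and muscle genes lie near it. Of 76 genes below -3 with all libraries, 12 were below -3 and 68 below -1 without it.

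Neutrophil granule genes stood higher at week 6, in all 3 libraries. Of 16 neutrophil granule genes tested, 13 were separated and higher, against 9.23% of all genes, and 0 lower. Their median difference was 0.86 and all 16 lay above 0. By edgeR 0 passed, by DESeq2 4 (Camp, Defa5, Cd177 and Retnlg) and by voom 13 were called higher. These calls were 1 and 3 without replicate 3 of week 2. The median was 0.82 without replicate 3 of week 2 and between 0.73 and 0.94 with any 1 of the 6 libraries left out.

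Camp, the granule antimicrobial peptide cathelicidin, stood at 1521, 1499.9 and 1510.3 CPM at week 2 and 3063, 2922 and 2365 CPM at week 6, a difference of 0.88 ± 0.21 (edgeR, adjusted p = 0.087). The libraries of week 2 were nearly level for Camp, replicate 3 included, and each library of week 6 was well above them. Mpo, myeloperoxidase, stood at 797, 794 and 527 CPM at week 2 and 2129, 1783 and 1125 CPM at week 6, and Elane, neutrophil elastase, at 165, 167 and 114 CPM at week 2 and 379, 342 and 227 CPM at week 6. Retnlg, a resistin-like protein of neutrophils, stood at 444, 371 and 322 CPM at week 2 and 747, 668 and 687 CPM at week 6. Genes of mature neutrophils were mixed, with 2 of 10 separated and higher (Fpr1 and Hdc), and a median of -0.20 that was 0.21 without replicate 3 of week 2.

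Eosinophil, basophil and mast cell genes had 9 of 17 separated and higher, against 9.23% of all genes, and 0 separated and lower. Their median was 0.59, with 12 above 0 and 5 below. By DESeq2 5 and by voom 6 were called higher, and without replicate 3 of week 2 each called 0. Then 10 were separated and higher and 2 lower (14.2% and 16.1% of all genes were). Prg2, the major basic protein of eosinophil granules, stood at 1923, 2455 and 1262 CPM at week 2 and 6611, 4533 and 3469 CPM at week 6, and Epx, eosinophil peroxidase, at 1141, 1729 and 663 CPM at week 2 and 4302, 3135 and 2391 CPM at week 6. Ms4a2, a chain of the high-affinity IgE receptor, stood at 48.8, 46.9 and 30.1 CPM at week 2 and 75.4, 89.8 and 57 CPM at week 6. Mcpt8, a basophil protease, stood at 63.6, 61.4 and 79.7 CPM at week 2 and 94.2, 143 and 135 CPM at week 6. For the eosinophil genes replicate 3 of week 2 was lowest, and for Mcpt8 it was the highest of week 2 and still below week 6. The related proteases Mcpt9 and Prss34 were called higher by DESeq2 and voom with and without that library, for which they were picked, Mcpt9 at 114, 105 and 153 CPM at week 2 and 238, 262 and 241 CPM at week 6. Il1rl1, the interleukin 33 receptor found on mast cells and basophils, stood at 15.2, 18.1 and 16.1 CPM at week 2 and 26.8, 32.4 and 28.6 CPM at week 6, and here the spread within each week was small.

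Red cell genes were higher too, with a median of 0.74. Of 17 tested, 13 were separated and higher, against 9.23% of all genes, and 0 lower. By edgeR 0 passed, and by DESeq2 4 and by voom 10 were called higher. Without replicate 3 of week 2, DESeq2 and voom each called 0. The marrow had been treated to lyse red blood cells, and how far lysis differed between libraries was not tested. Klf1, the transcription factor of the red cell lineage, stood at 235, 175 and 105 CPM at week 2 and 302, 296 and 269 CPM at week 6. Alas2, the first enzyme of heme synthesis in red cells, stood at 1849.6, 1922 and 1486 CPM at week 2 and 3114, 3852 and 2741 CPM at week 6, and Hbb, beta globin, at 26517, 27543 and 23814 CPM at week 2 and 47756, 59101 and 43702 CPM at week 6. Replicate 3 of week 2 was the lowest for these 3 genes. Without it the median of the list was 0.47 with 13 still separated (14.2% of all genes were). Of 24 proliferation genes 0 were separated, while 23 lay above 0 with a median of 0.25, which was -0.01 without replicate 3 of week 2. Without replicate 1 of week 2, 13 were separated and higher (15.4% of all genes were). Mki67 stood at 1486, 1209 and 535 CPM at week 2 and 1420.2, 1675 and 1279.6 CPM at week 6, low in replicate 3 of week 2 alone. The promoter of Alas2 represents the red cell list (250 bases before the start, RefSeq, GRCr8, chrX:22895200-22895449, plus strand), with the GATA motif AGATAA, 136 bases before the start, in capitals.
Alas2: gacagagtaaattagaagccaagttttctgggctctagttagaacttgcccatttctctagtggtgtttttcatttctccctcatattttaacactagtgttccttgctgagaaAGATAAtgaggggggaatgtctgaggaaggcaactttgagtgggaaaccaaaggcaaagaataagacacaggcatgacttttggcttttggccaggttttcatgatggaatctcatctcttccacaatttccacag
AGATAA was present on either strand in 5 of 13 red cell genes that had a promoter, and in 11.6% of all promoters.

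**Figure D5:**
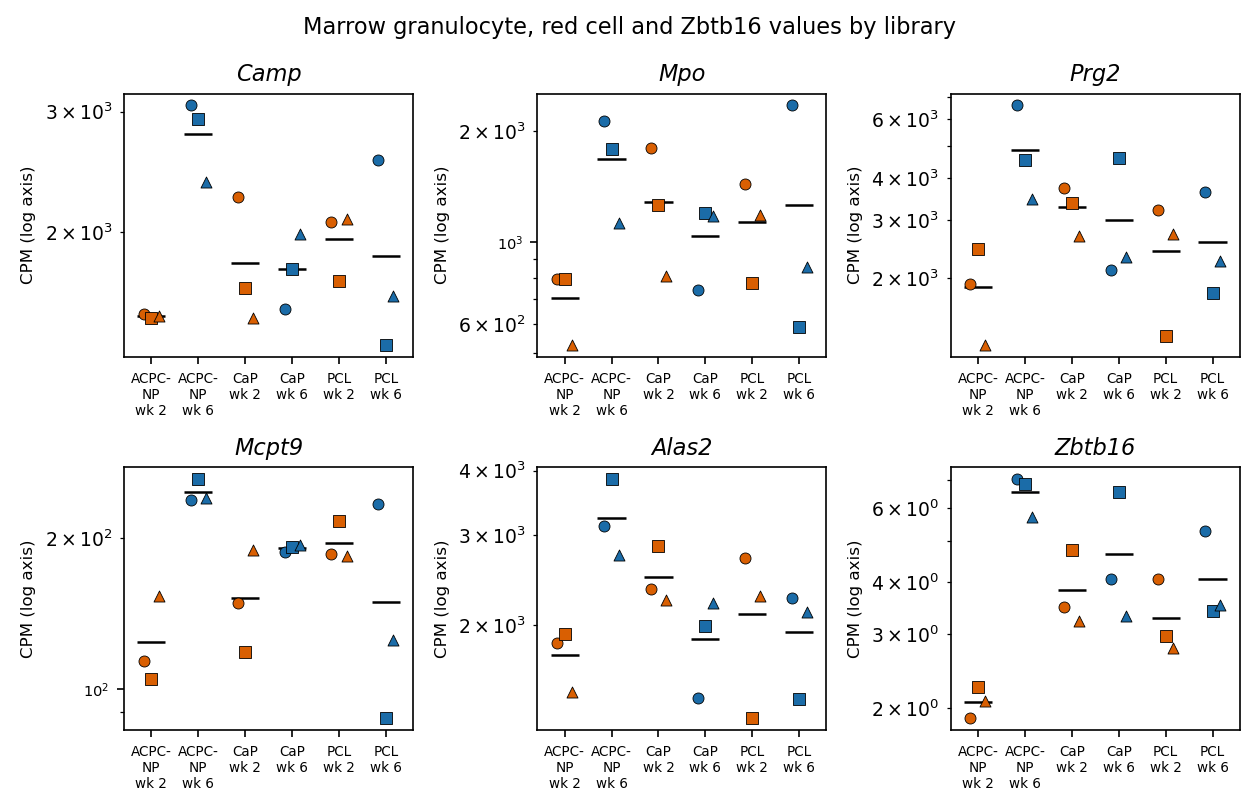
CPM (log axis) of 6 genes in all 18 libraries, by scaffold and week, with a bar at the mean of 3 libraries, the symbol shape giving the replicate and the colour the week (orange for week 2, blue for week 6). All 3 ACPC-NP libraries of week 6 lay above all 3 of week 2 for Camp, Mpo, Prg2, Mcpt9, Alas2 and Zbtb16.

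Stem and stromal genes of marrow included several separated and higher genes at low levels. Meis1, a transcription factor of blood stem cells, stood at 1.97, 1.81 and 1.52 CPM at week 2 and 4.96, 4.15 and 3.44 CPM at week 6. Of 11 stem and progenitor genes, 2 were separated and higher (Meis1 and Gata2) and 0 lower, too few to set apart from the 9.23% of all genes. Lepr, the leptin receptor that marks marrow stromal cells, stood at 2.05, 2.37 and 1.46 CPM at week 2 and 4.19, 4.78 and 4.89 CPM at week 6, and Pparg, which drives fat cell fate, at 4.53, 4.18 and 4.04 CPM at week 2 and 6.41, 9.39 and 9.11 CPM at week 6. Of 12 stromal and fat genes, 3 were separated and higher (Lepr, Pparg and Vcam1) and 0 lower. Their median of 0.42 turned to -0.20 without replicate 3 of week 6. Skeletal muscle genes had a median of 2.50 with 5 of 16 separated and higher (Myh1, Mb, Actn3, Pvalb and Atp2a1), and 0.73 without that library. The separated genes were 9 without replicate 3 of week 2 (14.2% of all genes were). Actn3, a muscle actinin, stood at 0.787, 2.09 and 1.68 CPM at week 2 and 6.71, 2.66 and 28.1 CPM at week 6. Pericyte and smooth muscle genes, 0 of 10 separated, had a median of 0.13 that was -1.75 without replicate 3 of week 6, where 8 were separated and lower (20.1% of all genes were). Endothelial genes, 0 of 14 separated, had a median of -0.15. Without replicate 3 of week 6 it was -1.20 and 11 were separated and lower.

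The early B, mature B and T cell lists had medians near 0. For the counts below, 9.3% of all genes were separated and lower and 9.23% separated and higher. Of 14 early B cell genes, 0 were separated, with a median of -0.23, and 14 of 14 lay below 0. Without replicate 3 of week 2, 9 of these were separated and lower (16.1% of all genes were). Vpreb1, a chain of the pre-B cell receptor, stood at 19.6, 19.4 and 9.82 CPM at week 2 and 13.5, 11.6 and 6.04 CPM at week 6. The 18 T cell genes tested had a median of -0.11. The 12 regulatory T cell and checkpoint genes had a median of -0.75 (-0.53 without replicate 3 of week 2), with 4 separated and lower (Il2ra, Havcr2, Cd274 and Gata3) and 1 higher (Ikzf2). Foxp3, the factor of regulatory T cells, stood at 2.44, 3.27 and 4.72 CPM at week 2 and 2.95, 2.26 and 3.07 CPM at week 6 and overlapped. Of 17 mature B and plasma cell genes, 3 were separated and higher (Fcer2, Bank1 and Cd37) and 2 lower (Sdc1 and Prdm1), with a median of 0.02. Separated and lower genes were 5 without replicate 3 of week 2. Sdc1 and Prdm1, known from plasma cells but also made by other cells, stood at 141, 183 and 1131 CPM at week 2 and 26.8, 35.1 and 87.4 CPM at week 6, and at 27.5, 31.5 and 68.7 CPM at week 2 and 12.7, 16.4 and 20 CPM at week 6, with replicate 3 of week 2 the highest in both.

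A further 5 genes, which are in none of the lists, were picked because DESeq2 and voom both called them with and without replicate 3 of week 2. Zbtb16, a zinc finger transcription factor also called PLZF, stood at 1.89, 2.25 and 2.08 CPM at week 2 and 7.05, 6.86 and 5.73 CPM at week 6, a difference of 1.66 ± 0.28 (edgeR, adjusted p = 0.0741), and 1.68 ± 0.33 without replicate 3 of week 2. Angpt2, a vessel-destabilising ligand, stood at 6.3, 7.14 and 5.89 CPM at week 2 and 11.9, 13.3 and 16.3 CPM at week 6. Clcn3, a chloride-proton exchanger of endosomes, stood at 32.3, 40.9 and 27.1 CPM at week 2 and 55.5, 74.2 and 58.1 CPM at week 6. Slc30a4, a zinc exporter, stood at 56.3, 55.8 and 58.4 CPM at week 2 and 36.2, 39.6 and 37.4 CPM at week 6, a difference of -0.59 ± 0.10 (edgeR, adjusted p = 0.0741). Nrtn, the neurotrophic ligand neurturin, stood at 4.88, 3.75 and 8.31 CPM at week 2 and 15.9, 12.9 and 23.3 CPM at week 6. Replicate 3 of week 2 lay beside the other libraries of its week for Zbtb16, Slc30a4 and Angpt2.

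The other scaffolds show which of these differences were also seen without the nanoparticles. The differences of differences all use the same 6 ACPC-NP libraries, so they are not independent of each other. Osteoblast genes had a median difference of -0.68 around PCL and -0.66 around CaP, with 7 and 2 of 17 separated and lower (6.7% and 7.93% of all genes were). Matrix genes had medians of -0.92 and -1.12. Skeletal muscle genes had medians of 1.17 around PCL and 1.34 around CaP, with 13 and 4 of 16 separated and higher (7.76% and 5.93% of all genes were). Col1a1 differed by -1.18 ± 0.41 around PCL and -1.03 ± 0.41 around CaP, and the difference of its differences was -0.30 ± 0.57 and -0.45 ± 0.57, each smaller than its standard error. Spp1, in contrast, differed by 0.03 ± 0.58 around PCL and 0.60 ± 0.58 around CaP, and the difference of its differences was -2.02 ± 0.83 and -2.58 ± 0.83 (edgeR, adjusted p = 0.306 and 0.267).

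Granule and red cell lists had medians slightly below 0 around the other scaffolds. Neutrophil granule genes had medians of -0.09 around PCL and -0.12 around CaP, with 0 of 16 separated and higher around either (7.76% and 5.93% of all genes were). Red cell genes had medians of -0.19 and -0.40, with 12 of 17 separated and lower around CaP (7.93% of all genes were). Chemokines had medians of 0.61 and -0.09, M1-type macrophage genes 0.35 and -0.02, and NF-kB targets 0.60 and 0.32. Around ACPC-NP the medians of these 3 lists without replicate 3 of week 2 were -0.98, -1.26 and -0.20. Mean levels of Camp were 1953 ± 223 and 1844 ± 622 around PCL at weeks 2 and 6, 1803 ± 395 and 1766 ± 220.2 around CaP, and 1510.3 ± 10.3 and 2784 ± 369 around ACPC-NP (CPM ± SD, n = 3), so ACPC-NP had both the lowest and the highest mean. Camp differed by -0.08 ± 0.21 around PCL and -0.03 ± 0.21 around CaP, and the differences of these from ACPC-NP were 0.97 ± 0.30 and 0.91 ± 0.30 (edgeR, adjusted p = 0.278 and 0.267). For Alas2 they were 1.00 ± 0.36 and 1.28 ± 0.36 (edgeR, adjusted p = 0.278 and 0.252). For Apoe they were -3.07 ± 0.72 and -2.83 ± 0.72 (edgeR, adjusted p = 0.278 and 0.244).

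No difference of differences passed an adjusted p of 0.05 by edgeR. The test called 0 genes against PCL, 0 against CaP and 0 against the mean of both, while 1768, 1673 and 2273 genes had an unadjusted p under 0.05. DESeq2 called 137 (1.16%), 192 (1.63%) and 582 (4.93%) genes, and voom 1930 (16.3%), 167 (1.41%) and 1684 (14.3%). Without replicate 3 of week 2 the DESeq2 calls were 18, 29 and 53, those of voom were 528, 0 and 345, and those of edgeR were 0 each. Among the smallest unadjusted p-values were Tusc2, a mitochondrial protein, with 0.87 ± 0.18 against PCL and 0.87 ± 0.18 against CaP, and Foxp3, with -2.40 ± 0.43 against PCL. The Foxp3 value came from the PCL side, where the difference between the weeks was 2.07 ± 0.31.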

How the data were processed

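Polyadenylated RNA was sequenced from 18 libraries, 3 for each of 3 scaffolds at weeks 2 and 6. The values are raw counts of reads by gene symbol, in 1 table deposited by the authors. The submitters' processing notes name bcl2fastq 2.20.0, STAR 2.7.9a, featureCounts, Subread 2.0.1 and the build Rnor_6.0. No annotation or strand setting is named, so reads of overlapping genes cannot be told apart. The deposited table of normalised values was not used.

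Library totals ran from 18880604 to 27186587 counts. No ACPC-NP library was a duplicate of another (chi-square of at least 30.2 per degree of freedom within a group). Counts were tested with edgeR 4.0.16 in R 4.3.3: filterByExpr (minimum count 10, minimum total 15) kept 11814 of 17337 genes, normalisation was TMM, and the robust quasi-likelihood fit had 1 term per group over all 18 libraries, with Benjamini-Hochberg adjustment and a threshold of 0.05. The biological coefficient of variation was 26.0%. Alternatives were DESeq2 1.42.0, voom with quality weights (limma 3.58.1), edgeR with DESeq2 size factors, no filter on low counts, only the 6 ACPC-NP libraries, the replicate number as a block, and each library left out. The fit was checked on simulated data.

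The 41 gene lists hold 739 entries, of which 661 were tested. List scores use log2 CPM with a prior count of 2. Lists have no test of their own. Members and lists were chosen with earlier results of these data known. Named genes are a panel of 45, those with the smallest p in each list and in each direction, and, chosen after their values were seen, separated list members and genes called by both DESeq2 and voom with and without replicate 3 of week 2. Promoters are 250 bases before to 50 after the start in RefSeq (GRCr8), and 8956 of the genes tested had one by symbol. A list gene counted as holding a motif when any of its promoters did, while the shares of all promoters count each promoter. No coordinates of the deposited files were used. Some results on single nerve and T cell list members are not reported here.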

Additional observations from a re-analysis of the deposited data

How the results depend on the processing

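Counts of called genes depended on the tool and on single libraries. For week 6 against week 2 around ACPC-NP, edgeR called 1 gene, DESeq2 785 (277 higher, 508 lower) and voom 1350 (613 higher, 737 lower). The share of higher calls was 35.3% by DESeq2 and 45.4% by voom. Only the 6 ACPC-NP libraries gave 0 calls (0 lower). Leaving out 1 ACPC-NP library at a time gave 0 to 882 calls, 0 to 143 higher and 0 to 739 lower. The highest counts came without replicate 1 of week 2, 4 genes were called without replicate 2 of week 2 (2 higher, 2 lower), and 0 without any of the other 4. Without replicate 3 of week 2, DESeq2 called 105 genes (42 higher, 63 lower) and voom 122 (40 higher, 82 lower). The cause was not tested. Using DESeq2 size factors in edgeR, or no low-count filter, left 1 call.

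For the difference from the change around PCL, DESeq2 called 137 genes and voom 1930, and leaving out 1 library at a time gave 0 to 148. From that around CaP, DESeq2 called 192 and voom 167, with 0 to 57. From the mean of both, DESeq2 called 582 and voom 1684, with 0 to 919. These highest counts all came without replicate 1 of ACPC-NP at week 2. Replicate 1 of PCL at week 6 left out gave 62 against PCL and 1 against the mean, and replicate 2 of ACPC-NP at week 2 gave 1 against CaP and 1 against the mean.

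With the replicate number as a block, edgeR called 0 genes around ACPC-NP (0 lower), with a smallest adjusted p of 0.0949. The labels give no link between same-numbered libraries beyond the number. Their deviations from the group means correlated at -0.03, 0.04 and -0.01, and those of differently numbered libraries between -0.17 and 0.11. With 3 libraries in a group, these values cannot decide whether libraries were paired. Runx2 turned direction without replicate 3 of week 6, with leave-one-out differences from -0.21 to 0.00033. Over its alternatives the difference of Gal lay between -4.54 and -3.56. Each library held 18880604 counts or more. Counting error limits genes of about 1 CPM or less, such as Col1a2 and, at week 6, Gal, more than the others.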
